A study of Mus musculus with 15 samples.

Results

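The microglial and immune miRNAs described here are 4 mature miRNAs of the mouse midbrain, mmu-miR-146a-5p, mmu-miR-146b-5p, mmu-miR-150-5p and mmu-miR-21a-5p (written without the species prefix from here on), among 396 miRNAs with a value in the analysed table. They are every listed arm of 9 miRNA names known from immune cells, a rule that uses names and no measured value, though the names were picked with earlier results of these data known. For 4 of the 9 names the table analysed here listed the 5p arm only. Under the other 5 names, miR-155, miR-223, miR-142, miR-142a and miR-21, it listed no arm. These are names rather than separate miRNAs, and the member miR-21a-5p is listed under miR-21a only.

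Midbrain total RNA was profiled by small RNA sequencing in C57BL/6 mice aged 6 months. The 7 A30P samples (replicates 1, 2, 3, 4, 6, 7 and 8) came from mice whose genotype label is A30P alpha-synuclein +/+, and the 8 WT samples (replicates 1 to 8) from wild-type mice of the same strain and age. A30P is a mutant form of the presynaptic protein alpha-synuclein that is linked to familial Parkinson's disease. The labels name neither the promoter behind the mutant allele nor whether each sample was 1 animal. P-values therefore cover only the variation among these samples, part of which may be technical. The table's CT columns were taken to be the WT samples of the same number.

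miRNAs are short RNAs that lower the output of mRNAs paired to their seed, the bases 2 to 8 from the 5′ end. In immune cells several of them act as brakes on inflammatory signalling. miR-146a is switched on by NF-κB and represses Traf6 and Irak1, adaptors of Toll-like receptor signalling, which closes a feedback loop. miR-146b carries the same seed. miR-150 is abundant in mature lymphocytes and represses Myb during their development, and miR-21 is expressed in many cell types, is induced in inflammation, and represses Pdcd4. Midbrain holds microglia, the resident macrophages of the brain, and some blood in its vessels, and whole tissue was sequenced. A lower level in such bulk RNA can come from fewer cells of a type or from less of the miRNA per cell, and these cannot be told apart here.

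The mature sequences are shown because they decide which of these miRNAs can be told from each other by their reads. RefSeq (build GRCm38.p6) held the mature sequence of 347 of the 396 listed miRNAs and of 3 of the 4, printed 5′ to 3′ with the seed in capitals.
miR-146a-5p: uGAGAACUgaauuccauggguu
miR-146b-5p: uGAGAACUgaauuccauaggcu
miR-21a-5p: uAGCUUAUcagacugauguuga
miR-146a-5p and miR-146b-5p share the seed GAGAACU and no other listed miRNA with a RefSeq sequence has it. Over 22 bases they differ at 2, G18A and U21C, counted from the 5′ end with the base of miR-146a-5p first. Both differences lie toward the 3′ end, and how the authors assigned a read that is trimmed there, or matches both, is not stated in the labels, so the split between the pair is uncertain. No other listed miRNA had the seed of miR-21a-5p. GC bases make up 9 of 22 in each miR-146 and 8 of 22 in miR-21a-5p.

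In GRCm38, which is not the mm9 build that the submitters' processing notes name, the mature miR-146a-5p maps to the minus strand of chromosome 11, from 43374435 to 43374456, and its hairpin overlapped no other gene in GENCODE vM21. The mature miR-146b-5p maps to the plus strand of chromosome 19, from 46342790 to 46342811, within an intron of the protein-coding gene Mfsd13a on that strand. The mature miR-21a-5p maps to the minus strand of chromosome 11, from 86584120 to 86584141, where the hairpin overlapped an annotated exon of Vmp1, a gene for an autophagy protein on that strand. The miR-150 hairpin maps to the plus strand of chromosome 7, from 45121757 to 45121821, and overlapped no other gene. The 4 miRNAs therefore come from 4 separate hairpins.

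Depth differed between the groups and bears on every value below. Reads of listed miRNAs numbered 21731 to 3500431 per A30P library (median 92827) and 724813 to 9762286 per WT library (median 5081436.5). The 4 A30P libraries under 100000 reads were replicates 1, 2, 4 and 7, and the shallowest WT libraries were replicates 1 and 8. One read was worth 56.4 normalized counts in A30P replicate 4 and 51.2 in A30P replicate 7, against 0.174 in A30P replicate 6. A normalized count is the authors' read count divided by a size factor for the library. All WT column headers share one letter tag and all A30P headers another; if the tag marks a batch, batch and genotype cannot be told apart.

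All 4 miRNAs were lower in A30P midbrain than in WT midbrain, with a mean level in WT that was 5.89 to 17.6 times that in A30P. The highest of these ratios was that of miR-21a-5p and the lowest that of miR-146b-5p. Without A30P replicate 6, the deepest A30P library, the ratio was 39.5 for miR-150-5p (12.8 with it), 26.8 for miR-21a-5p (17.6), 11.7 for miR-146a-5p (8.18) and 8.34 for miR-146b-5p (5.89). All 4 passed the threshold by limma on log2(normalized count + 1), fitted to all 396 miRNAs with Benjamini-Hochberg adjustment and called at adjusted p 0.05. In the same fit 281 of the 396 miRNAs were called lower in A30P, which is 71.0%, so a count of 4 of 4 lies near the background and is no result about these miRNAs as a set. Their median log2 fold change was -4.37, beside -2.57 over all 396 miRNAs. Without A30P replicate 6 limma again called all 4 lower, beside 74.0% of all miRNAs.

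miR-146a-5p, the feedback brake on Toll-like receptor signalling, had normalized counts of 0 (lowest), 42.6 (median) and 153 (highest) in A30P libraries, against 110, 495 and 723 in WT libraries. A30P replicates 4 and 7 had no read. The groups overlapped, since A30P replicates 2 and 6, at 121 and 153, lay above the lowest WT library, replicate 8, and WT replicate 1 was also at 153. The mean was 54.4 ± 60.1 in A30P (SD, n = 7) and 444 ± 222 in WT (SD, n = 8). The log2 fold change was -4.35 (SE 1.07, limma adjusted p = 0.0012), with 69 of the 396 miRNAs at a lower value.

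miR-146b-5p, which shares that seed, had normalized counts of 0, 56.6 and 179 (lowest, median and highest) in A30P libraries, against 55.5, 393 and 633 in WT libraries. A30P replicate 7 had no read. The groups overlapped, since A30P replicates 2, 4, 6 and 8 lay above the lowest WT library, replicate 8. The mean was 64.9 ± 62.3 in A30P and 383 ± 214 in WT, and the log2 fold change was -3.22 (SE 0.96, limma adjusted p = 0.0051). Of the 396 miRNAs, 141 had a lower log2 fold change.

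miR-150-5p, the lymphocyte miRNA, had normalized counts of 0, 17.0 and 196 in A30P libraries, against 345, 477 and 772 in WT libraries. The groups did not overlap, although A30P replicates 2, 4 and 7 had no read and replicate 6 stood far above the other A30P libraries. How many of all 396 miRNAs showed no overlap in normalized counts was not counted. By share of listed reads 30.8% of them had every A30P library below every WT library. The mean was 38.7 ± 70.6 in A30P and 496 ± 130 in WT. The log2 fold change was -5.84 (SE 1.04, limma adjusted p = 7.6e-05), and 9 of the 396 miRNAs had a lower one.

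miR-21a-5p, the most abundant of the 4 in both groups, had normalized counts of 0, 85.2 and 366 in A30P libraries, against 107, 2137 and 4320 in WT libraries. A30P replicate 7 had no read, and A30P replicates 2 and 6 lay above the lowest WT library, replicate 8, so the groups overlapped. The mean was 120 ± 119 in A30P and 2108 ± 1632 in WT, and the log2 fold change was -4.38 (SE 1.08, limma adjusted p = 0.0013). Of the 396 miRNAs, 68 had a lower log2 fold change. These 4 fold changes are on the log2(value + 1) scale, so where a shallow library had no read they depend on the pseudocount of 1.

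**Figure D1:**
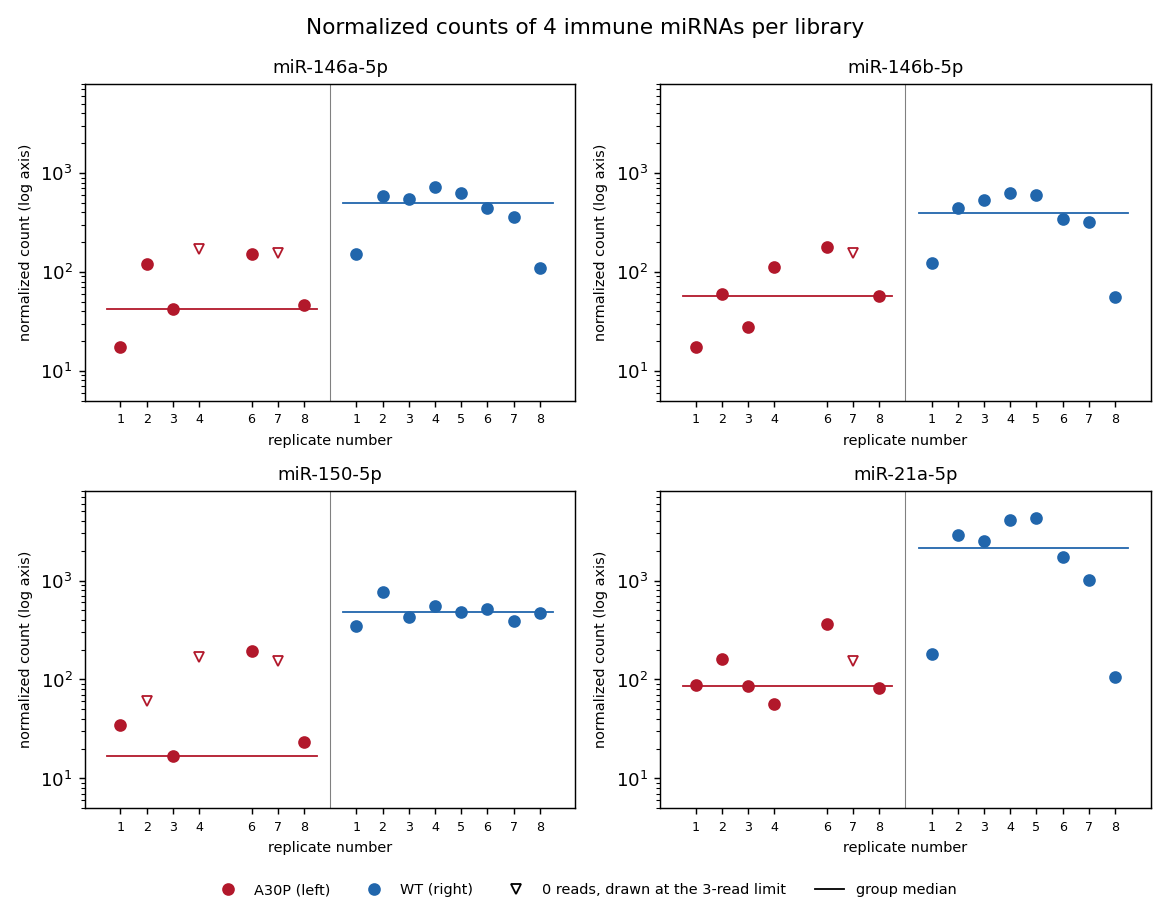
Normalized counts (log axis) of the 4 miRNAs in each of the 7 A30P libraries (left) and 8 WT libraries (right), with lines at the group medians; open triangles mark libraries with 0 reads, drawn at the level 3 reads would give. For miR-150-5p every A30P value with reads lies below the WT range of 345 to 772, while for miR-21a-5p WT replicates 1 and 8 lie at 183 and 107, among the A30P values.

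The zero readings limit what the normalized counts can show. In A30P replicate 4 a count of 0 leaves room for 169 normalized counts, the worth of 3 reads, and in A30P replicate 7 for 154. Where such a library had no read, the limit reached into the WT range for miR-146a-5p, miR-146b-5p and miR-21a-5p. For miR-150-5p both limits, and the limit of 60.3 in A30P replicate 2, lie under the lowest WT level of 345. The deeper A30P libraries do not rest on such limits. In A30P replicates 3, 6 and 8, miR-150-5p had 8, 1125 and 9 reads, miR-146a-5p 20, 881 and 18 reads, miR-146b-5p 13, 1029 and 22 reads, and miR-21a-5p 40, 2102 and 32 reads.

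The share of all listed reads does not depend on the authors' size factors. miR-146a-5p took 0.00613% ± 0.00879 of listed reads in A30P (SD, n = 7) and 0.0597% ± 0.0221 in WT (SD, n = 8), and every A30P library was below every WT library, though the highest A30P share of 0.0252% almost met the lowest WT share of 0.0262%. miR-150-5p took 0.00564% ± 0.0118 in A30P and 0.0731% ± 0.0214 in WT, also without overlap, with the highest A30P share at 0.0321% and the lowest WT share at 0.0528%. The exact two-sided permutation test (6435 arrangements of 7 against 8 libraries) gave p = 0.000311 for each, the smallest it can give, and 0.000932 after adjustment over all 396 miRNAs. Among all 396 miRNAs 30.8% had every A30P library below every WT library.

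For the other pair the shares overlapped. miR-146b-5p took 0.00743% ± 0.0101 in A30P and 0.0506% ± 0.0225 in WT (adjusted p = 0.0026 by the exact permutation test), and A30P replicate 6, at 0.0294%, exceeded WT replicates 1 and 8, at 0.0211% and 0.0133%. miR-21a-5p took 0.0142% ± 0.0205 in A30P and 0.268% ± 0.185 in WT (adjusted p = 0.0049 by the exact permutation test), and A30P replicate 6, at 0.0600%, again exceeded WT replicates 1 and 8, at 0.0313% and 0.0258%. By this test 71.2% of all 396 miRNAs were called lower in A30P. Without the 4 A30P libraries under 100000 reads, the exact permutation test kept the calls of miR-146a-5p and miR-150-5p (adjusted p = 0.0314 each). It lost those of miR-146b-5p (adjusted p = 0.0706) and miR-21a-5p (adjusted p = 0.0956). Their differences were -0.0379 and -0.242 percentage points, against -0.0432 and -0.254 with all libraries. Fewer libraries give fewer arrangements and so a larger smallest p-value. miR-146a-5p and miR-150-5p passed under that same limit, and the cause of the losses was not tested. The share of all miRNAs called in this setting was not counted.

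Counting error did not bridge the gap between the groups in most A30P libraries. The Wilson 95% interval, or the 3-read limit where no read was seen, lay wholly below the lowest WT interval in 7 of 7 A30P libraries for miR-150-5p, 6 for miR-146a-5p, 5 for miR-21a-5p and 5 for miR-146b-5p. For miR-146b-5p in A30P replicate 7 this rests on the 3-read limit. The Wilson upper bound there, 0.0140%, lies above the lowest WT bound of 0.0115%. In A30P replicate 3 the share of miR-150-5p was 0.00225% (Wilson 0.00114% to 0.00444%), and in WT replicate 3 it was 0.0528% (0.0508% to 0.0550%). In A30P replicate 7, 0 of 27348 reads allows a share of up to 0.0110% for each of the 4 miRNAs. Reads were not counted by molecular identifiers, so intervals and limits cover counting error only.

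**Figure D2:**
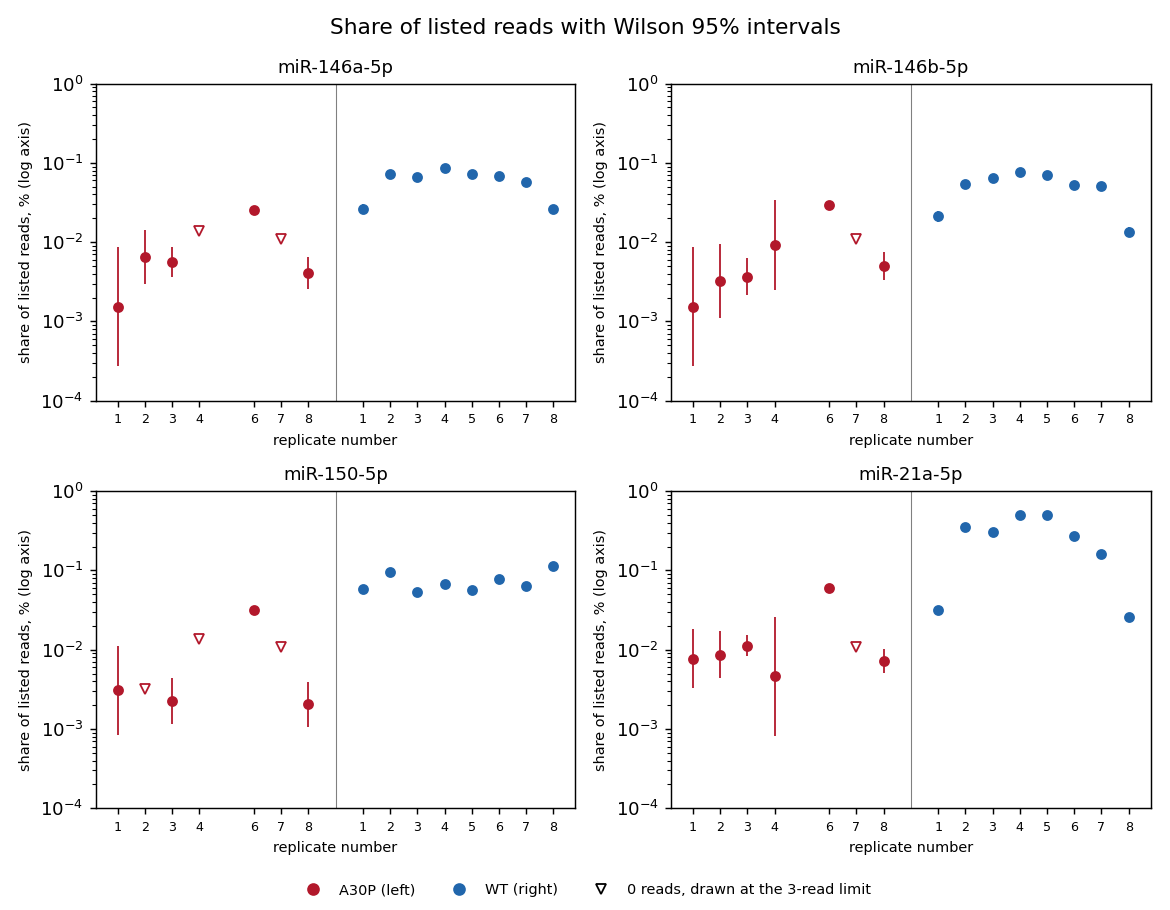
Share of listed reads in percent (log axis) of the 4 miRNAs per library, A30P left and WT right, with Wilson 95% intervals (hidden by the point where narrow); open triangles mark 0 reads at the 3-read limit. A30P replicate 6 has the highest share of its group for all 4 miRNAs, from 0.0252% for miR-146a-5p to 0.0600% for miR-21a-5p.

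miR-148a-3p and miR-151-3p, named here after their values were seen, took 13.9% to 80.1% of listed reads in A30P libraries and 0.842% to 2.51% in WT libraries, which lowers every other share in A30P. With both left out of the total, miR-150-5p took 0.00826% ± 0.0133 in A30P and 0.0741% ± 0.0220 in WT, and its groups still did not overlap (highest A30P share 0.0373%, lowest WT share 0.0534%). How many of all miRNAs showed no overlap on this total was not counted. miR-146a-5p took 0.0129% ± 0.0132 in A30P and 0.0604% ± 0.0223 in WT, and its groups then overlapped, with a highest A30P share of 0.0325% and a lowest WT share of 0.0265%. On this total all 4 miRNAs were again called lower at adjusted p 0.05 by the exact permutation test, beside 55.8% of the 394 miRNAs left.

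The size of the fold changes depended on the scaling and the test. So did the call of miR-146b-5p and, in the authors' deposited table, those of miR-146a-5p and miR-21a-5p. With TMM scaling of the recovered reads before limma, the median log2 fold change over the 396 miRNAs was -1.83, miR-146b-5p stood at -2.15 (adjusted p = 0.0548), and 3 of the 4 were called, beside 55.1% of all miRNAs. In edgeR's quasi-likelihood test on the recovered reads with TMM scaling, 35.5% of 318 tested miRNAs were called lower (113 lower and 62 higher, against 281 lower and 33 higher by limma). There the log2 fold changes were -2.53 for miR-21a-5p (adjusted p = 0.0011), -2.17 for miR-150-5p (adjusted p = 0.0031), -1.44 for miR-146a-5p (adjusted p = 0.0218) and -1.13 for miR-146b-5p (adjusted p = 0.0717), with a median of -0.75 over all tested miRNAs. Relative to that median the log2 fold change was -0.38 for miR-146b-5p and -1.79 for miR-21a-5p. In edgeR with the authors' size factors miR-150-5p stood at -3.19 and miR-146a-5p at -2.76, and all 4 were called, beside 61.9% of tested miRNAs. In limma-voom with TMM scaling all 4 were called too, miR-146b-5p at -1.23 (adjusted p = 0.0377 by limma-voom), beside 27.7% of tested miRNAs. DESeq2 on the recovered reads also called all 4 lower, beside 48.2% of all 396 miRNAs and a median of -1.57. Its log2 fold changes were -4.02 for miR-21a-5p, -2.97 for miR-150-5p, -2.75 for miR-146a-5p and -2.45 for miR-146b-5p.

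The authors' deposited table gave smaller differences. It listed log2 fold changes of -1.91 for miR-150-5p (adjusted p = 0.0044), -0.76 for miR-146a-5p (adjusted p = 0.211), -0.68 for miR-21a-5p (adjusted p = 0.476) and -0.38 for miR-146b-5p (adjusted p = 0.632). So 1 of the 4 was called in the authors' deposited table, where 34.1% of the 396 miRNAs were called lower. The median over all 396 miRNAs was -0.75 there, beside -0.72 for the 4. Relative to that median, miR-150-5p stood at -1.16, miR-146a-5p at -0.01, miR-21a-5p at 0.07 and miR-146b-5p at 0.38. Without the 4 A30P libraries under 100000 reads, limma called all 4 lower, at log2 fold changes of -3.45 for miR-150-5p, -3.13 for miR-21a-5p, -2.46 for miR-146a-5p and -2.18 for miR-146b-5p, beside 52.3% of all miRNAs and a median of -1.77.

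**Figure D3:**
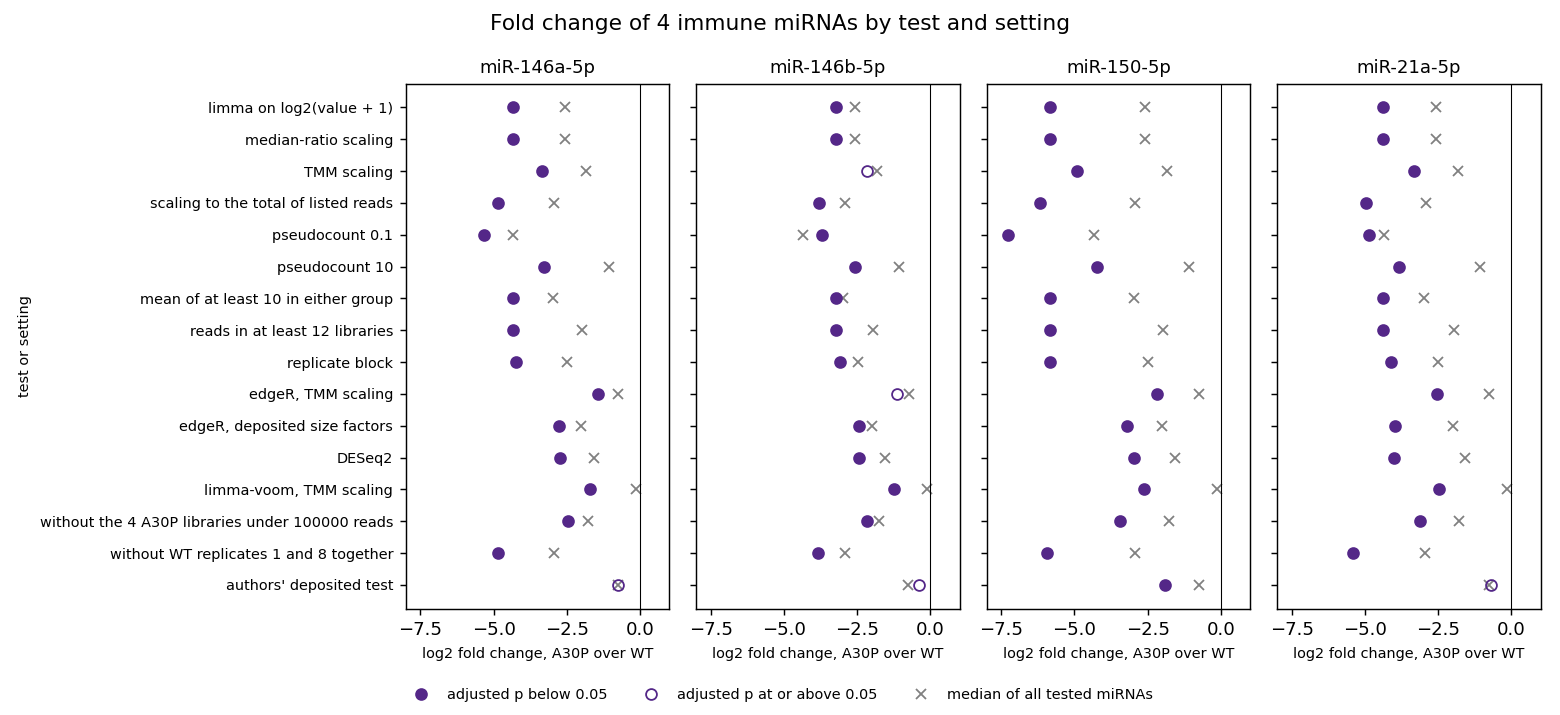
Log2 fold change (A30P over WT) of each of the 4 miRNAs under 16 tests and settings, 1 row each, with filled points for adjusted p below 0.05, open points otherwise, and grey crosses for the median of all tested miRNAs. miR-150-5p is called in every row shown and lies left of the cross in each; miR-146b-5p is open with TMM scaling in limma and in edgeR and in the authors' deposited test.

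Among the WT libraries the 4 miRNAs did not vary alike. miR-21a-5p ranged 40.3-fold across the 8 WT libraries, miR-146b-5p 11.4-fold, miR-146a-5p 6.57-fold and miR-150-5p 2.24-fold. Ranked by the SD of log2 normalized counts among the 307 miRNAs with reads in every WT library and a WT mean of at least 10, miR-21a-5p was number 20 from the most variable (SD 2.04), and miR-150-5p number 285 (SD 0.35), around a median SD of 0.88. The wide spread of miR-21a-5p came with WT replicates 1 and 8, at 183 and 107 normalized counts, while the other 6 WT libraries held 1015 to 4320. miR-146a-5p and miR-146b-5p were lowest in the same libraries, at 153 and 110 and at 123 and 55.5 normalized counts. miR-150-5p was also lowest in WT replicate 1, at 345 normalized counts, but stood at 472 in WT replicate 8, beside 392 to 772 in the others.

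Replicates 1 and 8 were the lowest pair of WT libraries for 162 of the 307 miRNAs (52.8%) and the highest pair for 43 (14.0%), so the low values of miR-21a-5p and both miR-146 members there are shared by many miRNAs. Those are also the WT libraries with the fewest reads, and the part of depth in this pattern was not tested. Without both of them the log2 fold changes by limma were -5.92 for miR-150-5p, -5.42 for miR-21a-5p, -4.86 for miR-146a-5p and -3.84 for miR-146b-5p. All 4 were called, beside 74.7% of all miRNAs and a median of -2.93.

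**Figure D4:**
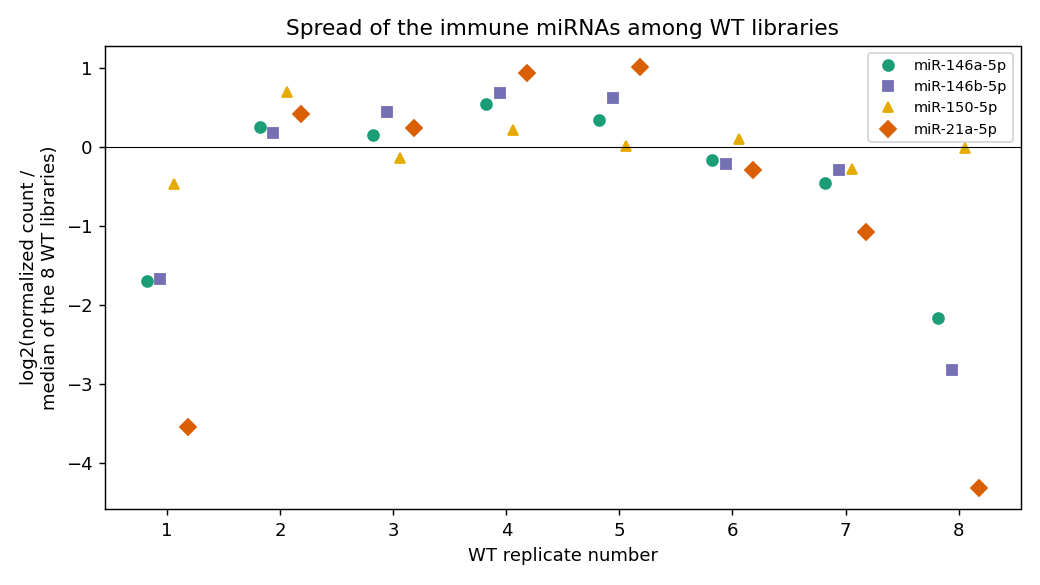
Log2 of the normalized count over the median of the 8 WT libraries, for each WT library and each of the 4 miRNAs. In WT replicates 1 and 8 miR-21a-5p lies furthest below its median and both miR-146 members lie below theirs, while miR-150-5p stays within 1 log2 unit of its median in all 8.

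A ratio between 2 of the miRNAs within a library does not depend on scaling and is given as a description. miR-146a-5p over miR-146b-5p ranged from 1.03 to 1.98 in WT libraries (median 1.19). In the A30P libraries over 100000 reads it was 0.822 to 1.52, so in these 11 libraries neither miR-146 member was more than 1.98 times the other. miR-21a-5p over miR-146a-5p was 1.76 to 2.39 in those 3 A30P libraries and 0.974 to 6.89 in WT libraries, where replicates 1 and 8 gave the lowest values and the other 6 lay between 2.80 and 6.89. miR-150-5p over miR-146a-5p was 0.415, 0.514 and 1.28 in those A30P libraries, and 0.768 to 4.29 in WT libraries with the highest value in WT replicate 8. The 4 shallow A30P libraries held at most 8 reads of any of the 4 miRNAs, too few for a ratio.

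**Figure D5:**
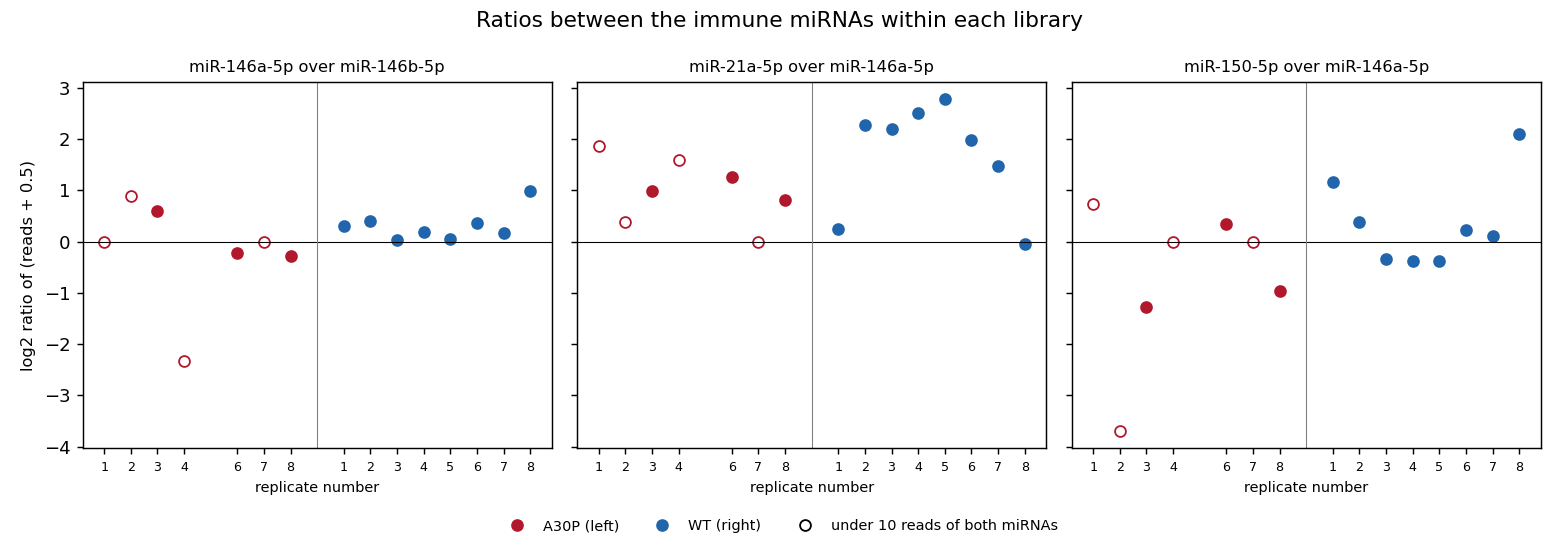
Log2 ratio of (reads + 0.5) between members within each library, A30P left and WT right; open points mark libraries with under 10 reads of both miRNAs. In WT, miR-146a-5p over miR-146b-5p stays between 0.04 and 0.99, while miR-21a-5p over miR-146a-5p spans -0.04 to 2.79.

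Likeness of pattern was measured over the 8 WT libraries as the SD of the log2 ratio of reads between 2 miRNAs, where a low SD means that they keep a constant proportion. Nearest to miR-21a-5p among 306 miRNAs were miR-872-5p (SD 0.23), miR-340-5p (0.23) and miR-26b-5p (0.28). Nearest to miR-146a-5p were miR-181d-5p (0.17), miR-185-5p (0.19) and miR-340-3p (0.19), and nearest to miR-146b-5p were miR-9-5p (0.20), miR-186-5p (0.20) and miR-181d-5p (0.22). Nearest to miR-150-5p were miR-125b-5p (0.16), miR-330-3p (0.23) and miR-346-5p (0.25). Between the 4 themselves the closest pair was miR-146a-5p with miR-146b-5p (SD 0.30), and the most distant was miR-150-5p with miR-21a-5p (SD 1.88). The median SD to all 306 was 1.55 for miR-21a-5p and 0.84 to 0.99 for the other 3. These neighbours rest in part on WT replicates 1 and 8. Without them miR-185-5p was the nearest to miR-146a-5p and miR-181d-5p the nearest to miR-146b-5p, while miR-340-3p was number 31 and miR-181d-5p number 12 for miR-146a-5p.

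Other miRNAs known from immune cells were taken from lists that were chosen with earlier results of these data known. Of 6 listed arms of leukocyte and macrophage miRNAs (miR-221, miR-222, miR-342 and miR-652), 5 fell by limma, none rose and 1 did not pass, with a median log2 fold change of -4.73. This is to be read against the 71.0% of all miRNAs that limma called lower and their median of -2.57, as are the limma counts that follow, and the edgeR counts against 35.5%. miR-221-3p averaged 17.1 ± 21.5 normalized counts in A30P and 669 ± 371 in WT, a difference that passed (log2 fold change -6.43, SE 0.99, limma adjusted p = 1.6e-05). miR-222-3p, its neighbour from the same family, averaged 18.0 ± 23.9 in A30P and 236 ± 121 in WT and also passed (log2 fold change -5.04, limma adjusted p = 0.00013). In edgeR with TMM scaling 3 of the 6 fell and 1, miR-221-5p, rose. Of 9 listed arms of miRNAs reported to respond to lipopolysaccharide in myeloid cells (miR-9, miR-132, miR-125b, miR-187 and let-7e), 7 fell, none rose and 2 did not pass, with a median of -2.41, and in edgeR with TMM scaling 4 of 8 tested fell. Several of these, miR-9 and miR-132 among them, are also abundant in neurons.

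Markers of the other cells in the tissue moved too. Of 9 neuron arms 8 fell by limma and 1 did not pass, and their summed share of listed reads was 0.226% to 1.83% in A30P libraries and 4.92% to 11.2% in WT libraries. Of 4 vascular arms 3 fell and 1 rose (summed share 0.377% to 1.89% in A30P, 0.704% to 2.47% in WT), and of 3 oligodendrocyte arms 2 fell and 1 did not pass (0.106% to 0.911% in A30P, 0.673% to 1.31% in WT). Of 5 choroid and ciliated cell arms 3 fell and 2 did not pass (0.0110% to 0.185% in A30P, 0.193% to 0.639% in WT). Of 4 erythroid arms 2 fell, 1 did not pass and 1 rose (0.0320% to 0.176% in A30P, 0.0382% to 0.381% in WT). The one that rose was miR-451a, the main miRNA of red blood cells, at 602 ± 636 normalized counts in A30P and 78.5 ± 32.8 in WT, which passed (log2 fold change 2.03, SE 0.83, limma adjusted p = 0.0327). In edgeR with TMM scaling, 2 of 5 tested neuron arms fell, 2 of 3 oligodendrocyte arms fell and 1 of 5 choroid and ciliated cell arms fell. None of the 4 vascular and 3 tested erythroid arms fell there, and 1 of each list rose, miR-143-3p (log2 fold change 2.93) and miR-451a (3.90). None of the markers in these lists was at 0 in every A30P library. The part of blood content or cell makeup in the levels of the 4 immune miRNAs was not tested.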

How the data were processed

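The members and lists were chosen with earlier results of these data known. Per the submitters' processing notes the build was mm9 and DESeq was used; no label or header names the aligner, counter or miRNA annotation. Per the labels' protocols a TruSeq small RNA kit was used, whereas the column headers begin with NEB. The signal values deposited by the authors are read counts divided by a size factor per library. All values of a library (100%, within 1e-05) were whole multiples of a step, taken as 1 read. The step is inferred: in 6 WT libraries the smallest value itself stands for 9 to 31 reads. Depths, shares and count tests rest on it. The deposited table also held the authors' log2 fold changes with p-values, and group means of unstated scale (unit score), which the authors gave and which were not used.

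limma 3.58.1 (trend, robust) was fitted to log2(value + 1) of all 396 miRNAs, without filter or covariate. Shares of listed reads, the only depth known, were tested by exact permutation (Python 3.11.15, numpy 2.4.6, pandas 2.3.3, scipy 1.17.1) for every miRNA. Alternatives were other scalings, pseudocounts, filters, libraries left out, edgeR 4.0.16, DESeq2 1.42.0 and limma-voom (R 4.3.3). limma and edgeR were also run on simulated counts, at equal depth and at the depths of these libraries. Recovery was required only of limma at equal depth, so the run does not vouch for the fits at the depths seen here. Named are all members, the 3 miRNAs nearest to each by WT log2 ratio, and up to 2 per list by WT mean. Those of the marker lists beside the immune ones are given as counts. miR-451a, miR-143-3p and miR-221-5p are named as members behind a count of 1. Within each group no 2 libraries agreed within sampling noise. Plots were drawn with matplotlib 3.10.9.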

Additional observations from a re-analysis of the deposited data

Results flagged for a closer look

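A30P replicate 6, the deepest A30P library, stood apart from the other 6 in 5 of the 16 sets of values examined (each miRNA in each group, as normalized count and as share of listed reads). A rate of about 1 in 20 sets flagged by chance was taken as a setting. That rate was not measured for these values, and the 5 sets share the library. Shares in A30P replicate 6 were 0.0252% for miR-146a-5p (next highest A30P library 0.00646%), 0.0294% for miR-146b-5p (next 0.00920%), 0.0321% for miR-150-5p (next 0.00307%) and 0.0600% for miR-21a-5p (next 0.0113%). The normalized count of miR-150-5p there was 196, with the next highest A30P library at 35.1. Without this library the log2 fold changes by limma were -6.59 for miR-150-5p, -4.87 for miR-146a-5p, -4.83 for miR-21a-5p and -3.63 for miR-146b-5p, and all 4 were called, beside 74.0% of all miRNAs and a median of -2.87.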

How the results depend on the processing

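The log2 fold changes of the 4 miRNAs stayed negative under every alternative run. Relative to the median of all miRNAs they did not: with a pseudocount of 0.1 miR-146b-5p stood 0.62 above it. miR-146b-5p did not pass with TMM scaling in limma (-2.15) or edgeR (-1.13), but passed with it in limma-voom (-1.23). In the authors' deposited table miR-146b-5p (-0.38), miR-146a-5p (-0.76) and miR-21a-5p (-0.68) did not pass, which left 1 of 4 called there. Without the 4 A30P libraries under 100000 reads the share differences of miR-146b-5p (-0.0379 percentage points) and miR-21a-5p (-0.242) did not pass. The exact test then has fewer arrangements and cannot give as small a p-value. The cause was not tested. Over all miRNAs 314 were called, against 141 with reads required in at least 12 libraries (fewer miRNAs tested), 175 in edgeR with TMM scaling, 165 in limma-voom with TMM scaling and 174 in the authors' deposited table. Higher calls were 33 of 314 by limma, 62 of 175 in edgeR with TMM scaling and 77 of 165 in limma-voom.

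Leaving out each library in turn gave 299 to 325 calls by limma, with 67.4% to 74.0% of the 396 miRNAs called lower. All 4 members were called lower each time, which lies near that background. Their log2 fold changes were -4.87 to -3.65 for miR-146a-5p, -3.63 to -2.38 for miR-146b-5p, -6.59 to -5.32 for miR-150-5p and -4.88 to -3.41 for miR-21a-5p. The share differences then ranged from -0.0584 to -0.0497 percentage points for miR-146a-5p, -0.0485 to -0.0395 for miR-146b-5p, -0.0719 to -0.0617 for miR-150-5p and -0.288 to -0.220 for miR-21a-5p. Whether the replicate numbers pair the samples is not known. The deviations correlated above 0.1 in 2 of 7 same-numbered pairs, and 1 of 7 A30P samples correlated best with its own number. With 4 A30P libraries under 100000 reads, this check cannot exclude a pairing. The fit with the replicate block called 297 miRNAs. It called all 4 members lower, beside 67.9% of all 396 miRNAs. Depth limits the A30P side: in the shallowest library a single read is worth 56.4 normalized counts.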
